A study of Mus musculus with 6 samples.

Results

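The 8 genes described here encode enzymes that desaturate, elongate and esterify long fatty acids: Fads1, Fads2, Fads3, Elovl1, Elovl2, Elovl3, Elovl5 and Lpcat3. They were taken by symbol from a table of 34866 genes measured by RNA sequencing of mouse liver, and all 8 had enough counts to be among the 13718 genes tested. The rule that lists them uses no measured value. One group of 3 libraries came from livers of mice treated with iD1, for which the labels give no more than this code. The other 3 came from vehicle livers, labelled as untreated in the treatment field and as vehicle in the titles and the design. All mice were male C57BL/6 animals of 8 weeks with free access to food, and the drug was given by intraperitoneal injection. No dose, exposure time or target of iD1 is stated in the labels, and nothing says that each library is a separate animal. The p-values below therefore rest on a spread between libraries that may be technical.

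Liver makes long polyunsaturated fatty acids from the dietary essential acids by alternating desaturation and elongation in the endoplasmic reticulum. The delta-6 desaturase encoded by Fads2 and the delta-5 desaturase encoded by Fads1 insert the double bonds, and the elongases of Elovl5 and Elovl2 lengthen the polyunsaturated chains between and after these steps. Elovl1 and Elovl3 encode elongases that act mainly on saturated and monounsaturated very long chains, and Lpcat3 encodes an acyltransferase that places polyunsaturated chains into membrane phospholipids. Transcription of Fads1, Fads2 and Elovl5 in liver is known to respond to SREBP-1c, the product of Srebf1, and that of Lpcat3 to the oxysterol receptor LXR.

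In iD1 livers the transcript of Elovl1 was lower, by 0.87 on the log2 scale, and the other 7 genes did not pass the test in either direction. The genes that carry the polyunsaturated pathway itself, Fads1, Fads2, Elovl5 and Elovl2, had log2 fold changes between -0.10 and 0.34. One of 8 genes called is 12.5%, against 16.7% of all tested genes. Of all tested genes 8.42% were called higher and 8.3% lower, against 0 and 1 of the 8. A gene is called where its p from edgeR's quasi-likelihood F test, adjusted by Benjamini and Hochberg's method over the whole table, is under 0.05. In 1 of the 8, again Elovl1, iD1 and vehicle values did not overlap, against 37.2% of all tested genes. The median log2 fold change of the 8 genes was 0.18, and that of all tested genes was 0.00064. Over the whole table, 50.4% of the called genes were higher in iD1 livers. Scaling by upper quartiles gave 38.4%, and scaling by library size alone gave 24.1% and moved the median log2 fold change to -0.20.

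Library totals ran from 23515571 to 35207596 estimated counts in iD1 and from 27160894 to 37613549 in vehicle. The first principal component of log2 CPM held 56.8% of the variance and separated the groups. On it iD1 replicate 1 stood at -19.4, against -49.7 and -45.2 for the other iD1 libraries and 32.5 to 45.8 for vehicle. The 6 hepatocyte markers summed to between 89399 and 97480 CPM (a counts-per-million level scaled by TMM) in iD1 and between 70916 and 93559 in vehicle. Of 5 neutrophil markers, 4 were tested and 3 were called higher, with summed levels of 2.74 to 10.4 CPM in iD1 against 0.699 to 0.965 in vehicle. No Kupffer cell marker was called, and 1 of 6 sinusoidal endothelial and 1 of 6 stellate markers were lower. Of the 6 hepatocyte markers 1 was called higher, and of 5 cholangiocyte markers 1 was higher and 1 lower. Of all tested genes 16.7% were called. Of 4 adipocyte markers, 2 were tested and 1 was called higher. The 4 summed to 8.54 to 12.9 CPM in iD1 against 3.03 to 5.09 in vehicle. Adipoq, which was not tested, averaged 0.342 CPM in iD1 and 0.512 CPM in vehicle. The mitochondrial share of counts was 8.68%, 9.37% and 10.3% in iD1 replicates 1, 2 and 3, against 10.6% and 12.3% in vehicle replicates 1 and 2 and 13.6% in the unnumbered library, without overlap. The part of these differences in the results was not tested, and in bulk liver fewer cells of a type cannot be told apart from less RNA per cell.

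Elovl1 makes very long acyl chains that are used for sphingolipids such as ceramides. Elovl1 stood at 22.7, 22.8 and 16.9 CPM in iD1 replicates 1, 2 and 3, against 39.3 and 39.4 in vehicle replicates 1 and 2 and 35.4 in the unnumbered vehicle library. Every iD1 library lay below every vehicle library. The mean was 20.8 ± 3.38 CPM in iD1 and 38.03 ± 2.27 CPM in vehicle (SD, n = 3 each). The log2 fold change was -0.87 (SE 0.14, 95% interval -1.18 to -0.56), which is 0.548 times the vehicle level (edgeR, adjusted p 0.00386). By p-value it ranked 396 of 13718 tested genes. Its call held without any 1 of the 6 libraries, with log2 fold changes between -0.95 and -0.74. Elovl1 (ENSMUSG00000006390) lies on chromosome 4 from 118428093 to 118432953 on the plus strand of GRCm38 in GENCODE M21. Its exons share 53 bases with Cdc20 on the other strand, which averaged 0.175 CPM in iD1 and 0.161 CPM in vehicle.

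**Figure D1:**
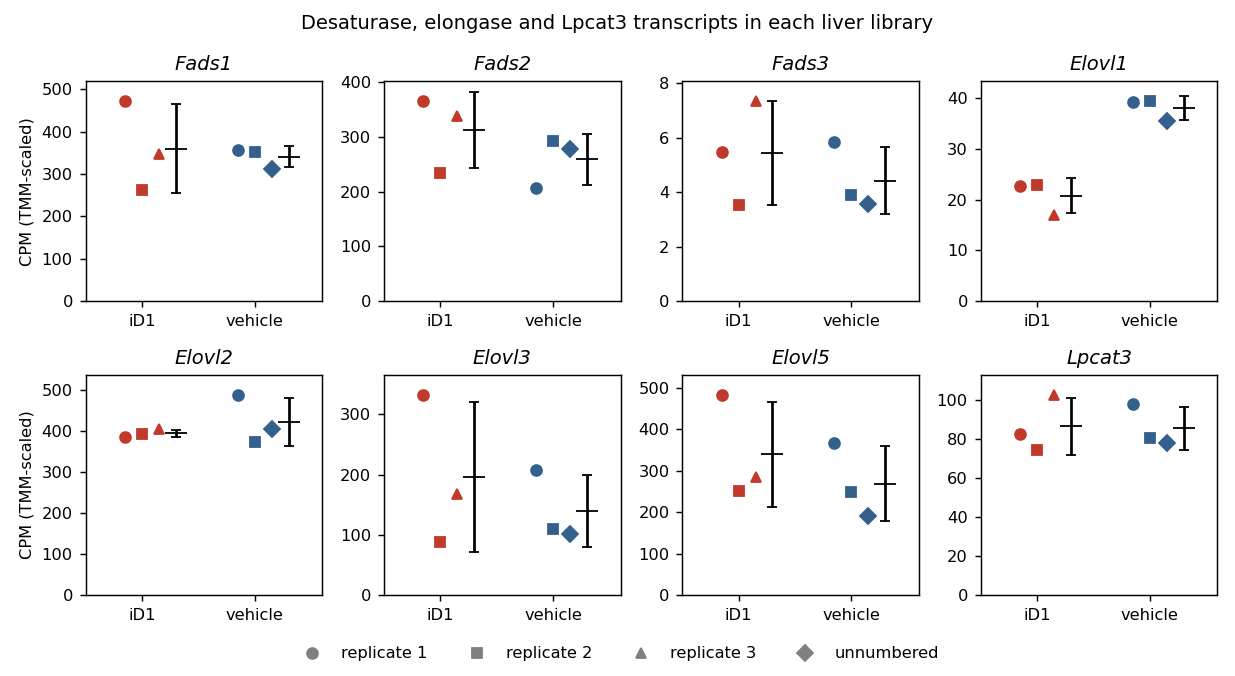
CPM (vertical axes, TMM-scaled, each starting at 0) of the 8 genes in the 3 iD1 libraries (red, left) and the 3 vehicle libraries (blue, right); marker shapes give the replicate and the black bars the mean ± SD. For Elovl1 the groups do not overlap (16.9 to 22.8 CPM in iD1 against 35.4 to 39.4 CPM in vehicle); for the other 7 genes they do.

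The bases just before the start of Elovl1, the gene that was called, are shown beside those of Elovl5, which was not called. Both stretches lie before the first base of the GENCODE gene. Stretches of Elovl2 (248 bases) and Fads3 (250 bases), also not called, lie there too and are not shown. The Elovl1 stretch, before the outer of the 2 starts that RefSeq gives, is chr4:118427843-118428092. The Elovl5 stretch is chr9:77917115-77917363. Both are on the plus strand of GRCm38.p6 and taken from RefSeq. Capitals mark matches, on either strand, to CCAAT (the NF-Y box), GGGCGG (the GC box) and CACGTG (the E-box).
Elovl1: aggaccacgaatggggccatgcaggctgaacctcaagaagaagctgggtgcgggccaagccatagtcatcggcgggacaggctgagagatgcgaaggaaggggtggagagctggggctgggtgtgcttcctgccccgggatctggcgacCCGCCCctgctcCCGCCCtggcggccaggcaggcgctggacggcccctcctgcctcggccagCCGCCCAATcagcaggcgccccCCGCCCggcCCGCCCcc
Elovl5: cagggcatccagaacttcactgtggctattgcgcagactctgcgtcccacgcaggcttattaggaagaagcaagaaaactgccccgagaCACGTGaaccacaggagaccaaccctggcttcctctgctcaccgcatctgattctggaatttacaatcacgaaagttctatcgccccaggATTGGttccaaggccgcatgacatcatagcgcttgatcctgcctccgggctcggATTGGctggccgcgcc
The Elovl1 stretch is 72.0% G and C and holds 5 GC boxes and 1 CCAAT, which overlaps 1 of the GC boxes. The Elovl5 stretch is 55.8% G and C and holds 2 matches to CCAAT and 1 E-box. Neither holds the SREBP site searched for, TCACNCCAC, nor a pair of AGGTCA with 4 bases or 1 base between the copies, the direct repeats bound by LXR and PPAR with their partner RXR. Among 32851 promoter windows of 250 bases, 33.8% hold CCAAT, 32.7% the GC box, 6.02% the E-box and 1.05% the SREBP site, all counted on both strands. The repeat with 4 bases between is in 0.0152% of the windows and that with 1 base in 0.0335%. The table matched 6 of the 8 genes, all but Fads1 and Elovl3, with 8 windows in all, and the SREBP site and both direct repeats were absent from these 8. The windows of Fads2, the inner Elovl1 start and the inner Elovl2 start have 7, 0 and 7 bases before the GENCODE gene. Bases upstream of Fads2 were thus hardly searched. GC boxes also occurred in windows of genes that were not called. The outer Elovl2 window and that of Lpcat3 held 5 each, that of Fads3 2 and that of Fads2 1. Elovl5 and the inner Elovl2 window held 0. A match is a description of letters and not a measured site.

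Among the desaturase genes none was called. Fads2, the first and often limiting step, stood at 365, 234 and 338 CPM in iD1 replicates 1, 2 and 3, against 206 and 292 in vehicle replicates 1 and 2 and 278 in the unnumbered vehicle library. Of the iD1 libraries, 2 lay above all vehicle libraries and the remaining one within their range. The log2 fold change was 0.27 (SE 0.20, 95% interval -0.17 to 0.72, adjusted p 0.388 in edgeR's test). Fads1 stood at 472, 262 and 346 CPM in iD1 replicates 1, 2 and 3, against 357, 353 and 312 CPM in vehicle replicates 1 and 2 and the unnumbered library. Its iD1 libraries thus reached both above and below the vehicle range, and they varied more: 360 ± 106 CPM in iD1 and 341 ± 25.1 CPM in vehicle (SD, n = 3 each). The log2 fold change of Fads1 was 0.08 (SE 0.20, 95% interval -0.38 to 0.54, adjusted p 0.826 in edgeR's test). It was -0.16 without iD1 replicate 1.

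Fads3, a relative known for desaturating sphingoid bases, was the least abundant of the 8. It stood at 5.48, 3.53 and 7.34 CPM in iD1 replicates 1, 2 and 3, against 5.82 and 3.88 CPM in vehicle replicates 1 and 2 and 3.55 CPM in the unnumbered library, and the groups overlapped. The log2 fold change was 0.30 (SE 0.29, 95% interval -0.36 to 0.95). The ratio of Fads1 to Fads2 counts within a library was 1.29, 1.118 and 1.03 in iD1 and 1.73, 1.21 and 1.123 in vehicle. The mean log2 ratio differed by -0.22 between iD1 and vehicle, with overlapping groups (two-sided exact permutation test, p = 0.4, 0.5 adjusted over the 2 ratios computed, with 0.1 the smallest p that 3 libraries against 3 allow). With vehicle replicate 1 left out the difference was -0.030, and with the unnumbered library left out it was -0.34.

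The 3 genes form a cluster of 155 kb on chromosome 19, Fads3 from 10041569 to 10060110, Fads2 from 10062765 to 10101746 and Fads1 from 10182888 to 10196877, in GENCODE M21 on GRCm38. All genes tested within 50 kb of it were examined. Rab3il1, which lies before Fads3 and encodes an exchange factor for Rab GTPases, was lower, with 1.06 ± 0.474 CPM in iD1 and 2.97 ± 0.189 CPM in vehicle (SD, n = 3 each) and a log2 fold change of -1.50 (SE 0.33, adjusted p 0.0151 in edgeR's test). Myrf, a membrane-bound transcription factor beyond Fads1, was lower by a log2 fold change of -0.55 (SE 0.16, adjusted p 0.0433 in edgeR's test). The call of Rab3il1 held without any 1 library. That of Myrf was lost without iD1 replicate 2 or 3, or without the unnumbered vehicle library or vehicle replicate 2, with adjusted p-values up to 0.153. Dagla had -1.16 (SE 0.45) at 0.299 CPM in iD1 and 0.663 CPM in vehicle, Fen1 had -0.15 (SE 0.24), Tmem258 had 0.0017 (SE 0.26), and these 3 were not called. The groups did not overlap for Dagla. The sign of Tmem258 flips with upper-quartile factors, library size only, other low-count filters and limma-voom, and without iD1 replicate 2 or vehicle replicate 2.

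**Figure D2:**
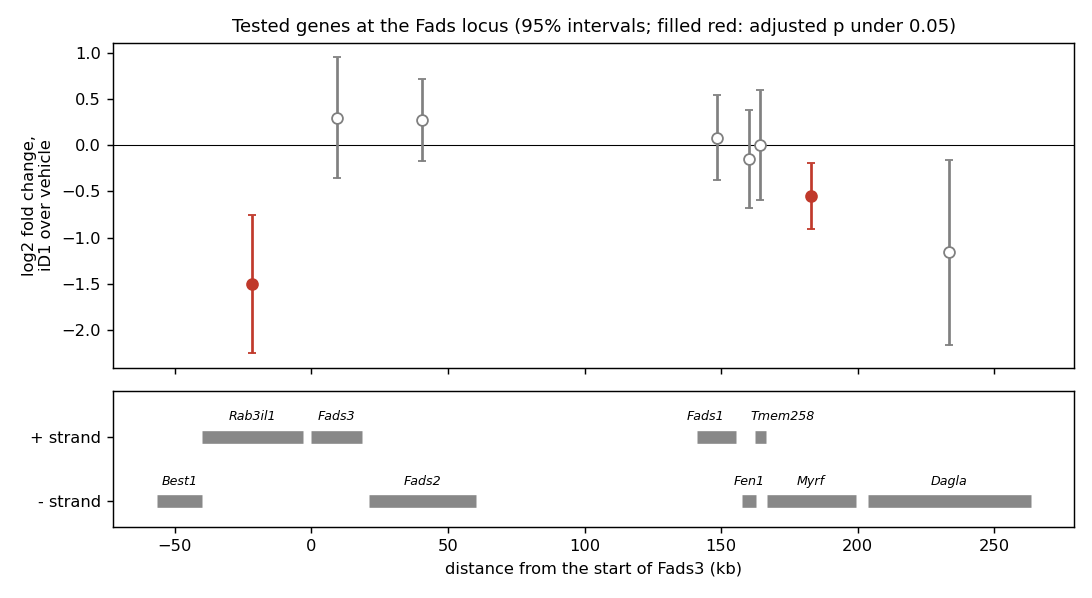
Log2 fold changes of iD1 over vehicle with 95% intervals (top) for the tested genes at the Fads cluster, placed by distance in kilobases from the start of Fads3, with gene bodies by strand (bottom). Rab3il1 at -1.50 and Myrf at -0.55 are called lower (filled red), while Fads3, Fads2 and Fads1 between them are at 0.30, 0.27 and 0.08 and are not called (open).

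Among the elongases of polyunsaturated chains, Elovl2, which makes the precursors of docosahexaenoic acid, had the smallest relative spread of the 8 in iD1 livers. The gene lies on chromosome 13 from 41182381 to 41220405. It stood at 387, 391.9 and 404 CPM in iD1 replicates 1, 2 and 3, against 488 and 375 CPM in vehicle replicates 1 and 2 and 405 CPM in the unnumbered library. The iD1 values lay inside the vehicle range, and the 95% interval of the log2 fold change, -0.43 to 0.23 around -0.10, reached down to 0.744 times and up to 1.17 times the vehicle level. Elovl5, on chromosome 9 from 77917364 to 77984519, elongates the shorter polyunsaturated chains. It stood at 483, 250 and 284 CPM in iD1 replicates 1, 2 and 3. In vehicle it stood at 366 and 248.8 CPM in replicates 1 and 2 and at 190 CPM in the unnumbered library. Replicate 1 was the highest library in both groups. The log2 fold change was 0.34 (SE 0.31, 95% interval -0.39 to 1.07, adjusted p 0.512 in edgeR's test) and -0.0033 without iD1 replicate 1. The ratio of Elovl5 to Elovl2 counts was 1.25, 0.639 and 0.702 in iD1 and 0.750, 0.664 and 0.469 in vehicle, with overlapping groups (two-sided exact permutation test, p = 0.5, 0.5 adjusted over the 2 ratios). The difference of the mean log2 ratios was 0.42, with 0.12 without iD1 replicate 1 and 0.22 without the unnumbered vehicle library.

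Elovl3, an elongase of saturated and monounsaturated chains whose liver transcript is known to follow the day cycle and to be higher in male mice, had the widest spread of the 8. It lies on chromosome 19 from 46131897 to 46135694, far from the Fads cluster. It stood at 332, 87.5 and 167 CPM in iD1 replicates 1, 2 and 3, against 208 and 110 CPM in vehicle replicates 1 and 2 and 101 CPM in the unnumbered library. The highest iD1 library was 3.80 times the lowest, and the highest vehicle library 2.06 times the lowest. The log2 fold change was 0.49 (SE 0.56), the 95% interval ran from 0.530 to 3.71 times the vehicle level, and the value without iD1 replicate 1 was -0.13. Changes of any size within that interval remain compatible with these libraries. Lpcat3, on chromosome 6 from 124663027 to 124704418, stood at 82.5, 74.5 and 103 CPM in iD1 replicates 1, 2 and 3, against 98.3 and 80.8 CPM in vehicle replicates 1 and 2 and 78.1 CPM in the unnumbered library. The groups overlapped, with a log2 fold change of 0.01 (SE 0.15, 95% interval -0.32 to 0.35), and its sign flips in 7 of the 16 alternatives. Exons of Lpcat3 share 334 bases with Emg1 on the other strand, which averaged 23.8 CPM in iD1 and 26.3 CPM in vehicle. The sources used here do not say if strand was used in the counting.

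**Figure D3:**
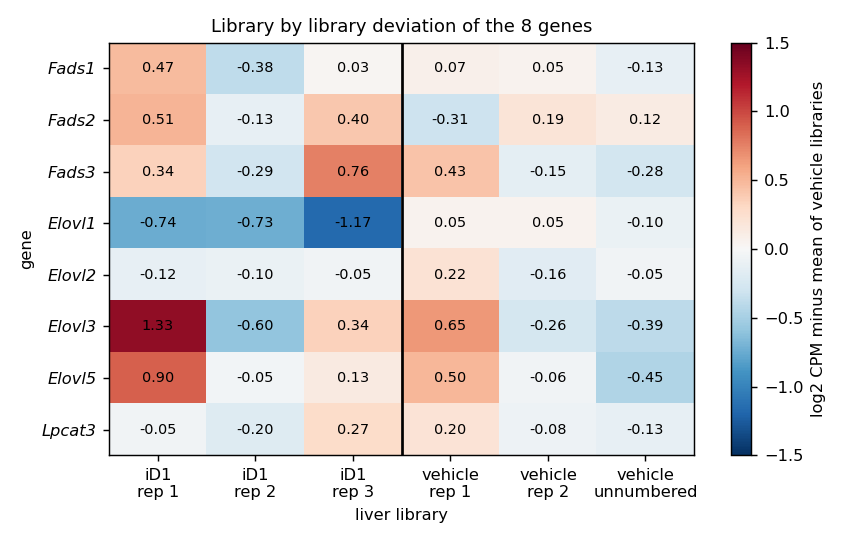
Log2 CPM of each gene (rows) in each library (columns; iD1 left of the line, vehicle right) minus the mean of the 3 vehicle libraries. Elovl1 is below 0 in all 3 iD1 libraries (-0.74, -0.73 and -1.17), and iD1 replicate 1 is the highest library for Fads1, Fads2, Elovl3 and Elovl5 (0.47, 0.51, 1.33 and 0.90).

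Relative to the vehicle mean, iD1 replicate 1 held the highest value of Fads1, Fads2, Elovl3 and Elovl5, and iD1 replicate 2 the lowest value of Fads1, Fads3, Elovl3 and Lpcat3. Over the 6 libraries, log2 CPM of Elovl3 had a Pearson correlation of 0.93 with that of Elovl5 and of 0.90 with that of Fads1. The pair of Fads3 and Lpcat3 lay between these, at 0.92. These are descriptions over 6 libraries that share their group and scaling. By the same measure, Sin3a (0.998) and Pias4 (0.984) were most like Fads1, Ubald1 (0.998) and Celf1 (0.991) most like Fads2, and Naip6 (0.994) and Nanog (0.981) most like Fads3. For the elongases the most alike were Atp8b1 (0.998) and Orai3 (0.997) with Elovl1, Exosc7 (0.980) and Atp5k (0.970) with Elovl2, Zfp280c (0.989) and Rbm5 (0.987) with Elovl3, and Frg2f1 (0.995) and Prdx6 (0.981) with Elovl5. Psg23 (0.974) and Tlr5 (0.962) were most like Lpcat3. These are the top values among the 13718 tested genes after predicted genes and genes without a symbol were left out. With so many genes, high values are to be found for any gene searched.

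Per kilobase of the longest transcript, the level of the 8 genes in iD1 livers was highest for Elovl5, at 122 ± 45.1 CPM per kb, followed by Fads1 (104 ± 30.5), Elovl3 (104 ± 66.3), Elovl2 (103 ± 2.36) and Fads2 (99.2 ± 21.9). In vehicle livers the order was Elovl2 (110 ± 15.4 CPM per kb), Fads1 (98.5 ± 7.26), Elovl5 (96.4 ± 32.3), Fads2 (82.1 ± 14.6) and Elovl3 (74.2 ± 31.4), each SD over 3 libraries. Neighbours among these 5 overlapped in their ranges in both groups, so the order of neighbours is not resolved. In vehicle, Elovl2 (97.5 to 127 CPM per kb) lay above Fads2 (65.5 to 92.8) without overlap. Below these 5, without overlap in either group, stood Lpcat3 at 36.5 ± 6.16 CPM per kb in iD1 and 36.1 ± 4.62 in vehicle, and Elovl1 at 11.5 ± 1.86 in iD1 and 21.0 ± 1.25 in vehicle. Fads3 was lowest, at 1.48 ± 0.517 CPM per kb in iD1 and 1.20 ± 0.332 in vehicle.

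Among relatives of these enzymes, Fads6 and Scd2 were lower in iD1 livers. Of 8 other elongases and desaturases 5 were tested, with 0 higher, 2 lower and a median log2 fold change of -0.70. These are 40% called and 60% without overlap between groups, against 16.7% and 37.2% of all tested genes. This list and the lists below were chosen with earlier results of these data known. Their shares are therefore descriptions and cannot test if a list differs from all tested genes. Fads6, a desaturase relative, averaged 70.1 ± 6.90 CPM in iD1 and 111 ± 2.64 CPM in vehicle (SD, n = 3 each), with a log2 fold change of -0.67 (SE 0.12, adjusted p 0.00573 in edgeR's test). Scd2, a delta-9 desaturase, averaged 2.69 ± 0.587 CPM in iD1 and 5.46 ± 1.24 CPM in vehicle, with a log2 fold change of -1.03 (SE 0.23, adjusted p 0.0155 in edgeR's test), and lost its call without iD1 replicate 2 or vehicle replicate 2.

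Elovl6, which elongates the products of fatty acid synthase, and Scd1, the main liver delta-9 desaturase, are described here because of 1 library and were chosen after their values were seen. Elovl6 stood at 214, 53.8 and 54.4 CPM in iD1 replicates 1, 2 and 3, against 221 and 234 CPM in vehicle replicates 1 and 2 and 269 CPM in the unnumbered library. Scd1 stood at 9655, 2726 and 1878 CPM in iD1 replicates 1, 2 and 3, against 8402, 8203 and 6586 CPM in vehicle replicates 1 and 2 and the unnumbered library. In iD1 replicate 1, Elovl6 was just below the lowest vehicle library and Scd1 above the highest, while the other 2 iD1 libraries were far below vehicle for both genes. With all libraries neither was called (log2 fold changes -1.17, SE 0.62, and -0.70, SE 0.62). Without iD1 replicate 1 both were called, with log2 fold changes of -2.16 and -1.74 and adjusted p-values of 7.5e-05 and 0.00176 in edgeR's test, and the count of lower genes in this list was 4. It was 1 gene without vehicle replicate 2 or iD1 replicate 2. Without iD1 replicate 1, Fads1, Fads2, Elovl3 and Elovl5 had log2 fold changes of -0.16, 0.15, -0.13 and -0.0033 and were not called.

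**Figure D4:**
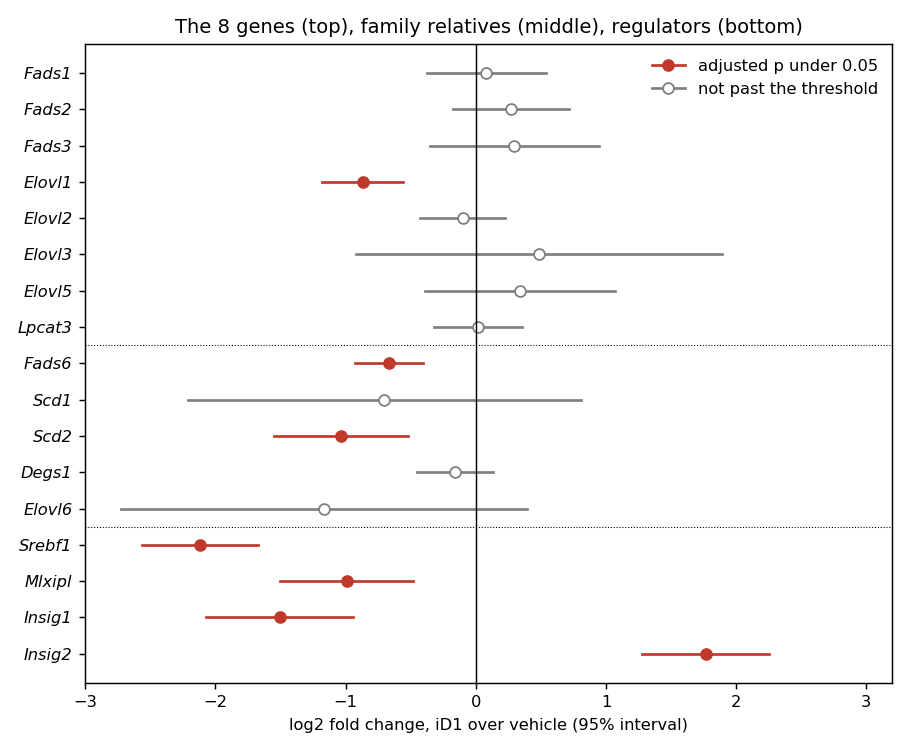
Log2 fold changes of iD1 over vehicle with 95% intervals for the 8 genes (top), their family relatives (middle) and regulators of the pathway (bottom); filled red marks an adjusted p under 0.05. Elovl1 is the called gene among the 8 at -0.87, while Srebf1 is at -2.12 and Insig2 at 1.76.

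The other steps of the elongation cycle are shared by all elongases, and the desaturases take their electrons through cytochrome b5. Of 11 tested genes listed for these steps, 1 was higher and 2 were lower (27.3%, against 16.7% of all tested genes), and 6 did not overlap between groups (54.5%, against 37.2%). Scaling by library size alone gave 0 higher and 3 lower. Hacd3, a dehydratase of the cycle, rose to 181 ± 17.9 CPM in iD1, against 123 ± 12.7 CPM in vehicle, a log2 fold change of 0.55 (SE 0.13). The cytochrome b5 gene Cyb5b, whose product sits in the outer mitochondrial membrane, fell to 238 ± 14.7 CPM, against 446 ± 47.8 CPM in vehicle, a log2 fold change of -0.91 (SE 0.14). The low-level Hacd4 averaged 0.559 ± 0.0406 CPM in iD1, against 1.25 ± 0.207 CPM in vehicle (adjusted p 0.0306 in edgeR's test), and lost its call without each of the 6 libraries, with adjusted p-values of 0.0546 to 0.104. Cyb5b was called without any 1 library. The single higher call was lost without iD1 replicate 2 or 3, and without the unnumbered vehicle library or vehicle replicate 2, and 1 gene was lower without any 1 of the 6 libraries.

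Peroxisomes shorten the longest polyunsaturated chains at the end of the pathway. Of 14 tested genes of this step 2 were higher and 0 lower (14.3% called, against 16.7% of all tested genes), with a median log2 fold change of 0.13. With library size only, 1 was higher and 1 lower, and 3 were higher with DESeq2 or without a low-count filter. Decr2, which reduces unsaturated intermediates, rose by a log2 fold change of 0.57 (SE 0.14) and lost its call without iD1 replicate 3, any 1 of the vehicle replicates 1 and 2 or the unnumbered vehicle library. The count higher was 1 without the unnumbered vehicle library, vehicle replicate 2 or iD1 replicate 3, and 1 gene was lower without vehicle replicate 1.

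Long chains must be activated to acyl-CoA before they are elongated. Of 10 tested genes of activation and binding 2 were higher and 1 lower (30% called, against 16.7% of all tested genes). Of these 10 genes, 40% did not overlap between groups, against 37.2% of all tested genes. With library size only, 2 were lower. Slc27a2, a very long chain acyl-CoA synthetase, rose to 1447 ± 276 CPM in iD1, against 764 ± 47.3 CPM in vehicle, a log2 fold change of 0.92 (SE 0.18). Acsl3, a synthetase of the endoplasmic reticulum and lipid droplets, fell to 23.0 ± 4.78 CPM in iD1, against 46.2 ± 7.38 CPM in vehicle. Both were called without any 1 library. Slc27a1, the third, rose by 0.85 on the log2 scale (SE 0.18) and lost its call without iD1 replicate 3 or the unnumbered vehicle library, where the count higher was 1. With iD1 replicate 1 left out the count lower was 2.

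Other enzymes that place or release acyl chains of phospholipids moved both ways. Of 15 tested, 3 were higher and 3 lower (40% called, against 16.7% of all tested genes). Only 1 was higher with upper-quartile factors, with library size only or without a low-count filter, each with 3 lower. The phospholipase gene Pla2g12a rose by 1.34 on the log2 scale (SE 0.28) and the acyltransferase genes Lclat1 and Agpat3 by 0.44 (SE 0.12) and 0.43 (SE 0.12). The lysosomal phospholipase gene Pla2g15 had -0.84 (SE 0.16), Lpcat1 had -1.15 (SE 0.32) and Agpat2, which makes phosphatidic acid, had -0.50 (SE 0.14). Of these only Pla2g15 was called without each of the 6 libraries. The count higher was 0 without iD1 replicate 3, vehicle replicate 1 or vehicle replicate 2 and 1 without the unnumbered vehicle library. The count lower was 1 without iD1 replicate 2, iD1 replicate 3 or any 1 vehicle library.

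Transcription factors that control the pathway, and the proteins that hold SREBP in check, included both higher and lower genes. Of 20 tested, 5 were higher and 4 lower, and 14 did not overlap between groups. These are 45% called and 70% without overlap, against 16.7% and 37.2% of all tested genes. As the list was chosen with earlier results known, these shares cannot test if regulators were called more often than other genes. With library size only, 2 were higher and 6 lower, and limma-voom gave 3 higher and 4 lower. Srebf1 stood at 69.6, 42.9 and 57.0 CPM in iD1 replicates 1, 2 and 3, against 203 and 283 CPM in vehicle replicates 1 and 2 and 248 CPM in the unnumbered library. All iD1 libraries, replicate 1 included, were below all vehicle libraries, and the log2 fold change was -2.12 (SE 0.20, adjusted p 4.44e-04 in edgeR's test). Insig1 and Insig2, which retain SREBP in the endoplasmic reticulum, had log2 fold changes of -1.51 (SE 0.25) and 1.76 (SE 0.22). Mlxipl, which encodes the carbohydrate sensor ChREBP, had -0.99 (SE 0.23), the fatty acid receptor gene Ppara 0.63 (SE 0.16) and its coactivator gene Ppargc1a 1.41 (SE 0.32). Srebf1, Insig1 and Insig2 were called without any 1 library. Mlxipl lost its call without iD1 replicate 3, vehicle replicate 1 or vehicle replicate 2. Ppargc1a lost it without any 1 library but iD1 replicate 1, and Ppara without any 1 but iD1 replicate 2. There were 2 higher genes without vehicle replicate 1, iD1 replicate 2 or the unnumbered vehicle library, and 1 without vehicle replicate 2 or iD1 replicate 3. There were 2 lower genes without iD1 replicate 3, vehicle replicate 1 or vehicle replicate 2.

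Of 18 tested genes that use or carry polyunsaturated fatty acids, 2 were higher and 0 lower (11.1% called, against 16.7% of all tested genes). Scaling by library size alone gave 2 higher and 3 lower, upper-quartile factors and limma-voom each gave 2 higher and 1 lower, DESeq2 gave 3 higher, and without a low-count filter 0 were higher and 1 was lower. Mfsd2a, a transporter of lysophospholipids that carry docosahexaenoic acid, stood at 138, 124 and 131 CPM in iD1 replicates 1, 2 and 3, against 10.05 and 42.9 CPM in vehicle replicates 1 and 2 and 21.7 CPM in the unnumbered library. The groups were far apart, with a log2 fold change of 2.39 (SE 0.53, adjusted p 0.0363 in edgeR's test), but the call was lost without any 1 iD1 library or the unnumbered vehicle library. Cyp4a14, a fatty acid hydroxylase gene with close relatives, rose by 2.41 on the log2 scale (SE 0.49). Its call was lost without vehicle replicate 1, the unnumbered vehicle library, iD1 replicate 2 or iD1 replicate 3. No gene of this list was higher without the unnumbered vehicle library, iD1 replicate 2 or iD1 replicate 3, 1 was higher without vehicle replicate 1, and 1 gene was lower without any 1 iD1 library.

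**Figure D5:**
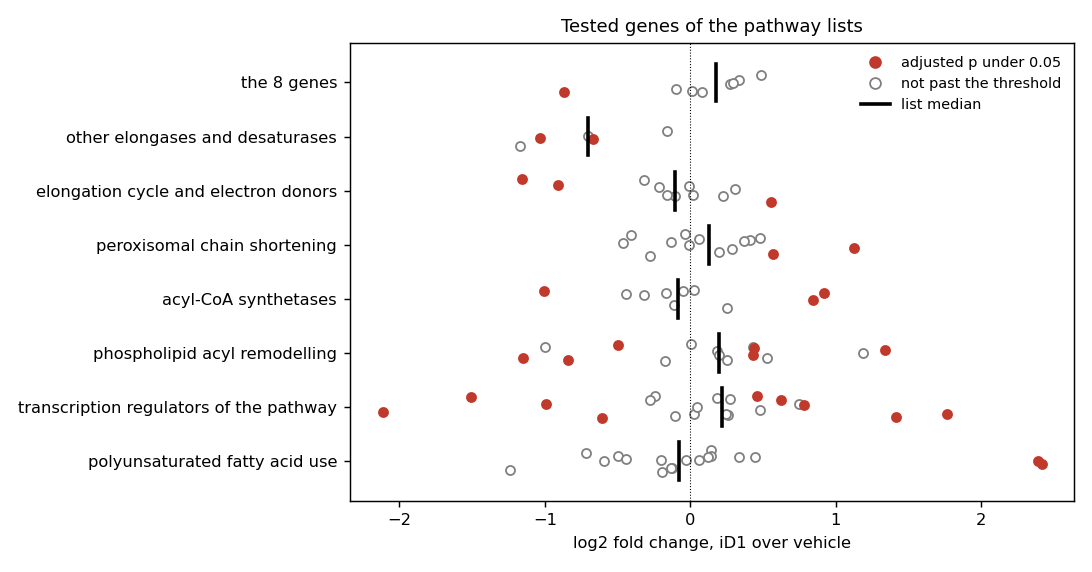
Log2 fold change of iD1 over vehicle (horizontal axis) of every tested gene in the 8 genes and the 7 pathway lists; filled red marks an adjusted p under 0.05 and black bars the list medians. The 8 genes have a median of 0.18, and the other elongases and desaturases have a median of -0.70.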

How the data were processed

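The values are estimated counts that the authors deposited without scaling, in 1 table of 6 liver libraries made with a stranded mRNA kit per the labels. The sources used here name no aligner, counter or build. Estimated counts were rounded to whole numbers, since 22.6% to 27.7% of a library's values were not whole. Symbols were found for 34582 of 34866 identifiers. Positions and transcript lengths come from GENCODE M21 on GRCm38, which holds 99.4% of the identifiers without version. A vehicle column whose number is in no sample title was used as an unnumbered vehicle replicate. No pair of libraries agreed within sampling noise.

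Genes passing edgeR's filterByExpr (minimum count 10, total 15) were tested with the quasi-likelihood F test (edgeR 4.0.16, R 4.3.3; TMM, robust, two-sided). A standard error is the size of the log2 fold change divided by the square root of F, and 95% intervals use the fit's degrees of freedom. Ratios within a library used a prior count of 2, as did log2 CPM.

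The 8 genes, the lists and the tests were chosen with earlier results of these data known. Named were all 8 genes, in each list the called genes with the 3 smallest p-values in each direction, and the tested genes within 50 kb of the Fads cluster. The 2 genes most alike to each of the 8 were also named, leaving out predicted genes and genes without a symbol. Elovl6 and Scd1 were added after their values were seen, and 1 gene that the rule names is not reported here. Alternatives were other scaling, filters, DESeq2 1.42.0, limma-voom (limma 3.58.1), non-robust shrinkage, a threshold of 0.01, a replicate block and leaving out each library.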

Additional observations from a re-analysis of the deposited data

How the results depend on the processing

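Elovl1 stayed called lower and the other 7 genes uncalled in all 16 alternatives. Of 128 gene values under the alternatives, 114 kept their direction and side of the threshold and 14 changed sign, all of genes that were not called. The threshold of 0.01 is among the 16 and reuses the main fit. Its signs cannot change and no uncalled gene can become called there. Fads1 was -0.11 with library size only and -0.013 with the replicate block, and -0.16 to 0.26 without 1 library. Fads3 was -0.11 with the block. Without 1 library Fads2 ranged from 0.13 to 0.43, Fads3 from 0.029 to 0.54, Elovl2 ranged from -0.18 to 0.018, Elovl3 from -0.13 to 0.89, Elovl5 from -0.0033 to 0.63 and Lpcat3 from -0.12 to 0.12. Lpcat3 was -0.062 with upper-quartile factors, -0.19 with library size only, -0.0029 without a low-count filter and -0.18 with the block. Tmem258 was -0.074 with upper-quartile factors, -0.22 with library size only, -0.010 without a filter, -0.0091 with at least 1 CPM in 3 libraries, -0.057 with limma-voom, and -0.38 to 0.22 without 1 library. The count of called genes was 2293, with 827 under the replicate block, 825 at an adjusted p of 0.01, and 1212 to 2574 without 1 library. The pathway lists held 27 called genes, with 9 under the replicate block, 9 at 0.01, and 11 to 28 without 1 library. Both counts moved by over 1.5 times without any 1 library other than iD1 replicate 1, with the lowest counts without the unnumbered vehicle library (1212) and iD1 replicate 3 (11). The causes were not tested, except that fewer libraries or a stricter threshold are part of these settings. The replicate block used the numbers 1 and 2 that both groups share. Its log2 fold changes thus rest on replicates 1 and 2 of each group. In that fit iD1 replicate 3 and the unnumbered vehicle library have no partner and do not inform the comparison. Deviations from the group means correlated at 0.169 for number 1 and -0.127 for number 2. With 3 libraries in each group, these values cannot tell if equal numbers mark a pairing or a batch, which was not tested. No sample was tested for standing apart, since each group has 3. Elovl3 and Elovl5 have the widest intervals of the 8 genes, and changes of any size within them remain compatible with these libraries.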

Other observations

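The following ratios within a library were chosen after the values were seen and are given as values without a test. Counts of Fads2 were 5.24, 5.45 and 5.92 times those of Srebf1 in iD1 replicates 1, 2 and 3, against 1.01 and 1.03 times in vehicle replicates 1 and 2 and 1.121 times in the unnumbered vehicle library. Counts of Fads1 were 6.78, 6.10 and 6.07 times those of Srebf1 in iD1 and 1.76, 1.25 and 1.26 times in vehicle. For Elovl5 the ratios to Srebf1 were 6.93, 5.83 and 4.98 in iD1 and 1.80, 0.878 and 0.766 in vehicle. In each case the groups were apart, and iD1 replicate 1, whose Elovl6 and Scd1 levels were near those of vehicle, lay with the other iD1 libraries. These ratios do not depend on how libraries are scaled. Srebf1 itself was called lower (log2 fold change -2.12) and was low in iD1 replicate 1 too. Ratios to it therefore separate the groups for any gene that changed little. The place of iD1 replicate 1 reflects its low Srebf1 level and is no separate result about Fads1, Fads2 or Elovl5. The ratio of Elovl1, also called lower, to Srebf1 was likewise higher in iD1, at 0.326, 0.533 and 0.298, against 0.194, 0.139 and 0.143 in vehicle. Counts of Elovl1 relative to Elovl2 were 0.0588, 0.0584 and 0.0420 in iD1 and 0.0806, 0.105 and 0.0877 in vehicle, again without overlap.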
